A study of Mus musculus with 4 samples.

Results

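The S100 calcium-binding proteins were described in mouse lung by the 13 probe sets of 9 genes (S100a1, S100a4, S100a6, S100a8, S100a9, S100a10, S100a13, S100b and S100g), out of 45101 probe sets on the array. Members were the probe sets whose platform annotation gives exactly 1 of 10 listed S100 symbols. The remaining listed gene, S100a11, has no such probe set and was dropped. The arrays came from 2 wild type lungs and 2 IKKa floxed lungs. The strain is labelled B6/J. All 4 were from mice given an adenovirus with Cre recombinase through the trachea, and were collected 4 months later, so the wild type lungs carried the same exposure to virus and Cre. A floxed allele is one flanked by loxP sites, which Cre recombines. IKKα is a catalytic subunit of the IκB kinase complex, upstream of NF-κB transcription factors. The labels do not give the age or sex of the mice, whether 1 or both alleles were floxed, the promoter that drives Cre, or whether the arrays are from different animals, and the p-values given here cover only how far these arrays scatter, a scatter that may be purely technical.

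S100 proteins are small vertebrate proteins built on a pair of EF-hands, the helix-loop-helix fold that binds calcium. Most form dimers that, on binding calcium, expose a surface for a partner protein, and several are also released from cells and act on receptors such as RAGE and TLR4. In lung, S100A8 and S100A9 are known as the calprotectin of neutrophils and monocytes, and S100A6 and S100A10 are abundant in epithelial, endothelial and mesenchymal cells. Of the 10 listed genes, 8 lie on chromosome 3, where S100a1 and S100a13 are neighbours and S100a8 and S100a9 come after S100a6 in the order of the listed genes. S100b lies on chromosome 10 and S100g on chromosome X (RefSeq, GRCm38.p6).

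4 stretches of promoter sequence bear on the members discussed most, and all are RefSeq sequence of GRCm38.p6 printed 5′ to 3′. The first 3 are the 250 bases before the start sites of S100a4, the one member with an unadjusted p under 0.05, and of S100a8 and S100a9, whose intensities went up and down together from array to array. Capitals mark the motif matches described after them.
S100a4, chr3:90603520-90603769, plus strand: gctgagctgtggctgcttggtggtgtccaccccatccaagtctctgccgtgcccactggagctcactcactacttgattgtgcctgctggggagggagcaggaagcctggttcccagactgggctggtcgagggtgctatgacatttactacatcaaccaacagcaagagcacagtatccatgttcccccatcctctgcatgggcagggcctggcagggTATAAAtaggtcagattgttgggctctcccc
S100a8, chr3:90668821-90669070, plus strand: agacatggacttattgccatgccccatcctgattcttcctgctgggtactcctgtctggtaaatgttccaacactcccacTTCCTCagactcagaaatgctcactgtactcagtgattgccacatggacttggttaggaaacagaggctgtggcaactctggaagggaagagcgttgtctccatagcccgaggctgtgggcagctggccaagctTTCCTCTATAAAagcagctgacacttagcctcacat
S100a9, chr3:90695722-90695971, minus strand: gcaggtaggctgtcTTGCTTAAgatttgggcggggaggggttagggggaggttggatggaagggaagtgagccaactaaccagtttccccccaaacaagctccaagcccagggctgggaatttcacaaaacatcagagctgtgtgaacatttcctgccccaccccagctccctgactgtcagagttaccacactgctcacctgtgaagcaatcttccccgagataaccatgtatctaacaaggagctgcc
S100a1 and S100a13 are transcribed away from each other, and the 104 bases between their start sites are shown because these neighbours differed in the direction of their group difference. No motif searched was found in it.
S100a1 to S100a13, chr3:90514331-90514434, plus strand: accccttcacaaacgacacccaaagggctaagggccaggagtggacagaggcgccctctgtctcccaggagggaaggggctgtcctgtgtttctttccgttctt

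5 motifs were searched on both strands of the 250 upstream bases of the 8 members with an entry. A TATA box (TATAAA) was found in S100a4, 31 bases before the start site, and in S100a8, 30 bases before it, and in 12.4% of all 32851 windows. The C/EBP motif TTGCNNAA was found in S100a9 and S100g, and in 9.56% of windows. The ETS motif GAGGAA was found in S100a8 alone of the 8, at 2 places on the opposite strand, 1 of them directly beside the TATA box, and in 23.3% of windows. The AP-1 motif TGANTCA (6.75% of windows) and the NF-κB motif (7.25%) had no match in these 8 windows. S100a8 and S100a9 had no motif of the 5 in common. A match is only a match of letters in this window.

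All 4 arrays carried a lung signature. The 9 type 2 alveolar genes on the array all passed the filter on low values, and their summed intensity was 47887 to 60667. None of the 9 passed the test between the groups, with Sftpc and Lyz1 at 0.44 and 0.38 in their brightest probe sets. The probe sets of Sftpc ran from -0.29 to 0.44 and those of Lyz1 from -0.81 to 0.55. IKKα mRNA is not analysed here, and recombination was not checked by it. Xist, the RNA of the inactive X chromosome in female cells, was at 31.8 and 22.9 on the wild type arrays and 4246 and 4629 on the floxed arrays, and the Y-linked Eif2s3y, Uty and Kdm5d went the other way. Genotype and this sex pattern therefore cannot be told apart in any comparison here. RNA integrity was read from the Gapdh control probe sets, whose 3′ signal over 5′ signal came to 1.18 and 1.1 in wild type against 1.44 and 1.68 in floxed lungs. The same ratio for actin was 2.65 and 2.46 in wild type against 2.67 and 2.77 in floxed lungs, with wild type replicate 1 and IKKa floxed replicate 1 close together. The part of RNA integrity in the results was not tested.

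The S100 genes as a family showed no change between the groups that passed the test. All 9 passed the filter on low values. None of the 9 passed limma's adjusted p of 0.05, against 1.77% of all 12735 genes tested, and 1 of the 9, S100a4, had an unadjusted p under 0.05, or 11.1%, against 14.3% of all genes. At the level of probe sets, 0 of 12 tested passed the adjusted threshold and 0 had an unadjusted p under 0.05, against 0.546% and 10.8% of 31526 probe sets. The group means were higher in floxed lungs for 5 genes and lower for 4, with a median log2 difference of 0.01, beside 4.7e-05 for all genes tested. Differences are on the scale log2(intensity + 16), floxed minus wild type, which understates those of dim probe sets. The groups did not overlap for 4 of the 9 genes, or 44.4%, a share near the 45.8% of all genes tested. Both floxed arrays were above both wild type arrays for 2 of them (23.6% of all genes) and below for the other 2 (22.2%). Among the 12 tested probe sets the groups did not overlap for 6, against 42.5% of all probe sets. The median size of the difference was 0.31 over the 9 genes and 0.14 over all genes tested, and 9.51% of all genes had a difference larger in size than that of S100a4.

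**Figure D1:**
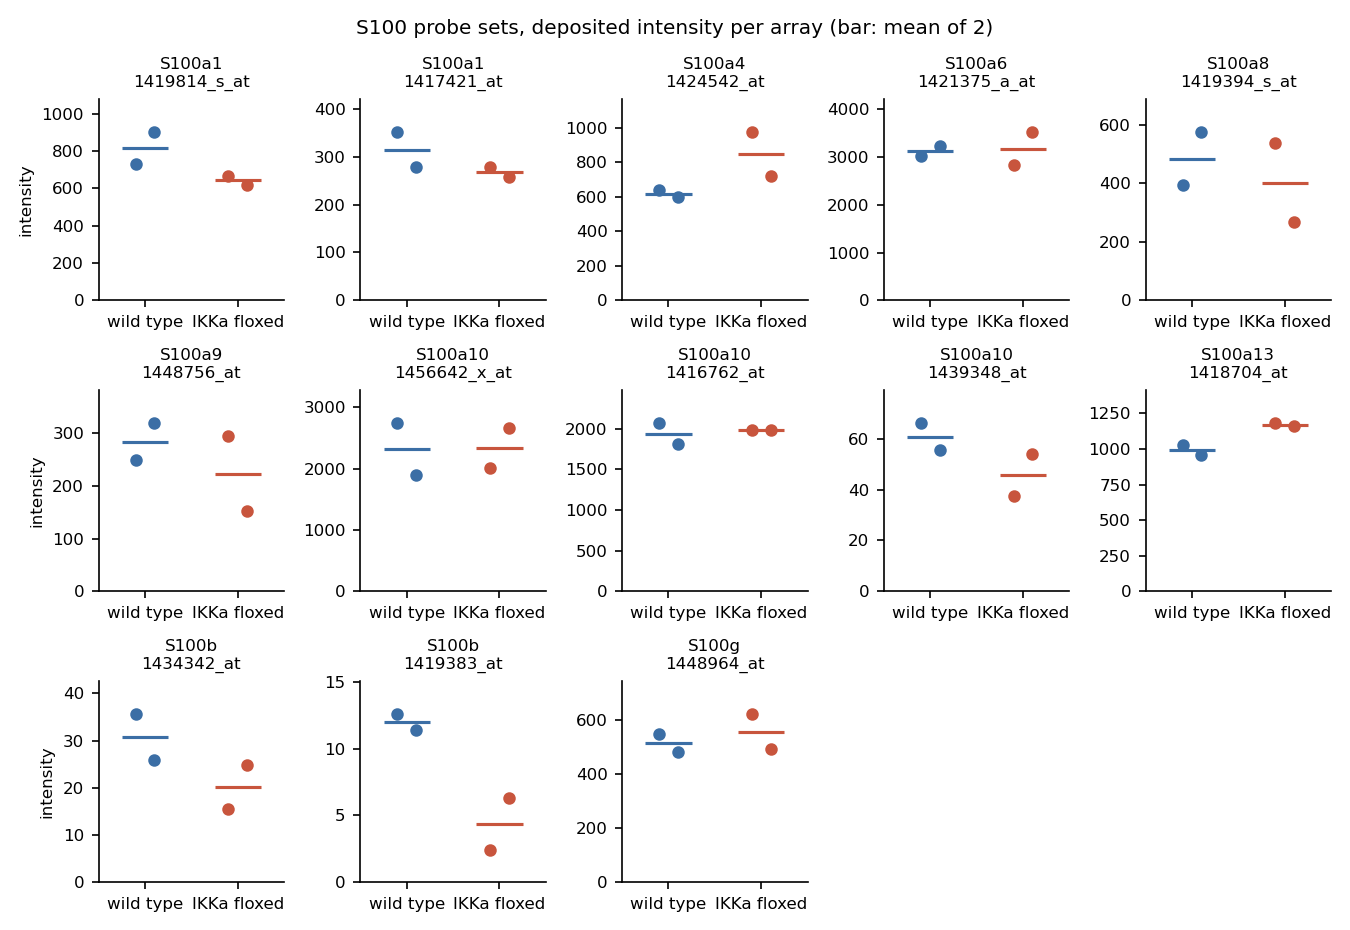
Deposited intensity (y axes, linear, from 0) of each of the 13 S100 probe sets on each array, wild type in blue and IKKa floxed in red, with a bar at the mean of 2 arrays. S100a4 and S100a13 sit higher on both floxed arrays, S100a1 and S100b lower, and S100a8 and S100a9 are lowest on IKKa floxed replicate 2.

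**Figure D2:**
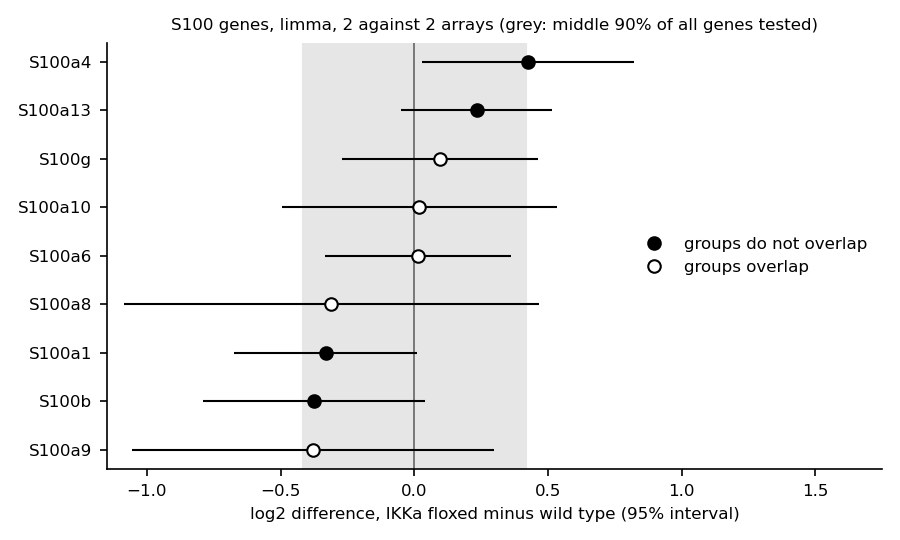
Log2 difference, IKKa floxed minus wild type, of the 9 S100 genes with its 95% interval from limma, not adjusted for the number of genes. The grey band, -0.42 to 0.42, holds the middle 90% of all genes tested, and only S100a4, at 0.43, has its point outside it.

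Among the members that act outside the cell, S100a8 and S100a9 differed more between the 2 floxed arrays than between the genotypes. Their proteins pair as calprotectin, which withholds zinc and manganese from microbes and is a ligand of TLR4 and RAGE. S100a8 had intensities of 394 and 574 in wild type against 539.95 and 267 in floxed lungs. S100a9 was at 248 and 318 in wild type against 294 and 152 in floxed lungs. Both genes were highest on wild type replicate 2 and lowest on IKKa floxed replicate 2, and for both the groups overlapped. The log2 difference was -0.31 ± 0.32 SE for S100a8 (95% interval -1.09 to 0.47, limma adjusted p = 0.728) and -0.38 ± 0.28 SE for S100a9 (-1.06 to 0.30, adjusted p = 0.610). A 2-fold difference in S100a8 or S100a9 downwards lies inside these intervals. Without IKKa floxed replicate 2 the differences turned to 0.18 and 0.06, and without IKKa floxed replicate 1 they were -0.80 and -0.82, so their direction rests on 1 array. S100a8 is measured here by a single _s_at probe set, a kind whose probes can match more than 1 transcript.

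S100a8 and S100a9 moved in step across the arrays. Relative to its own mean on the log2 scale, S100a8 stood at -0.11 and 0.42 on the wild type arrays and at 0.33 and -0.64 on the floxed arrays. S100a9 stood at 0.02, 0.36, 0.25 and -0.63 in the same order. By Euclidean distance between such centred values over the 4 arrays, S100a9 was the gene ranked 2 nearest S100a8 of 12734 others, and S100a8 ranked 5 nearest S100a9. The other genes nearest S100a8 were Dnah6, a dynein heavy chain of motile cilia, Rhbg, an ammonium transporter, Ncs1, a neuronal EF-hand calcium sensor, and Zfp219, at distances of 0.0381, 0.164, 0.166 and 0.223, beside 0.164 for S100a9. Nearest S100a9 were Kcna7, Ncs1, Zfp219 and Ly6g6c, at 0.114, 0.117, 0.14 and 0.157. Likeness over 4 arrays is a description only.

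Neutrophil genes differed among themselves in the order of the arrays. Of 18 neutrophil genes on the array, 10 were below the filter on low values, among them the granule genes Mpo (15.1 to 21.5 over the 4 arrays), Elane (5.02 to 18.9) and Camp (2.79 to 8.55), and Cxcr2 (3.26 to 20.5). Of the 8 tested, 1 fell, against 0.762% of all genes called lower, and none rose (median -0.02). IKKa floxed replicate 2, the lowest array for S100a8 and S100a9, was lowest for 3 of the 8 (Ltf, Mmp9 and Fcnb) and highest for 3 others (Csf3r, Mcemp1 and Wfdc21), and over all 18 it was lowest for 7 and highest for 4. Fcnb, a ficolin of neutrophil granules, had the same order of arrays as S100a8, at 18.0 and 33.1 in wild type against 21.8 and 16.1 in floxed lungs, as did Padi4, below the filter. The one that fell was Ltf, the iron-binding lactoferrin of neutrophil granules and of airway glands, at 152 and 102 in wild type against 53.1 and 48.1 in floxed lungs (-1.08 ± 0.18 SE, limma adjusted p = 0.0467). That call was lost without wild type replicate 1 or without either floxed array, with a pseudocount of 1, after quantile normalization and with no filter on low values (limma adjusted p up to 0.156). Lcn2, an iron-scavenging lipocalin also made by epithelium, was at 776 and 710.0 in wild type against 1029 and 908 in floxed lungs (0.37, adjusted p = 0.260). The summed intensity of the list was 1584 and 1427 in wild type against 1814 and 1671 in floxed lungs, and without Lcn2, its brightest gene, 808 and 717 against 785 and 764. In whole lung, fewer cells of a type and less RNA per cell cannot be told apart. The part of neutrophils in the S100a8 and S100a9 values was not tested.

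Some genes of airway secretory cells, which share Ltf with neutrophils, fell on the floxed arrays. Of 13 airway secretory and ciliated cell genes tested 6 fell, against 0.762% of all genes called lower, and none rose (median -0.48). They were the antimicrobial lectin Reg3g, the secretoglobin Scgb3a1, the BPI fold proteins Bpifb1 and Bpifa1, the trefoil peptide Tff2 and the mucin Muc5b. Scgb3a1 was at 3158 and 2906 in wild type against 79.8 and 236 in floxed lungs (-4.29 ± 0.40 SE, limma adjusted p = 0.00578), and the club cell secretoglobin Scgb1a1 at 14552 and 14417 against 19539 and 16203 (0.30, adjusted p = 0.3999). Of the 13 differences, 10 were below 0 and 3 above it, those of Scgb1a1, Cyp2f2 and Sec14l3. The list summed to 48890 and 50637 in wild type against 52104 and 43982 in floxed lungs. With a pseudocount of 1, 2 of the list fell, and with no filter, 3. With an intensity trend and robust prior Scgb3a1 and Bpifa1 did not pass.

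**Figure D3:**
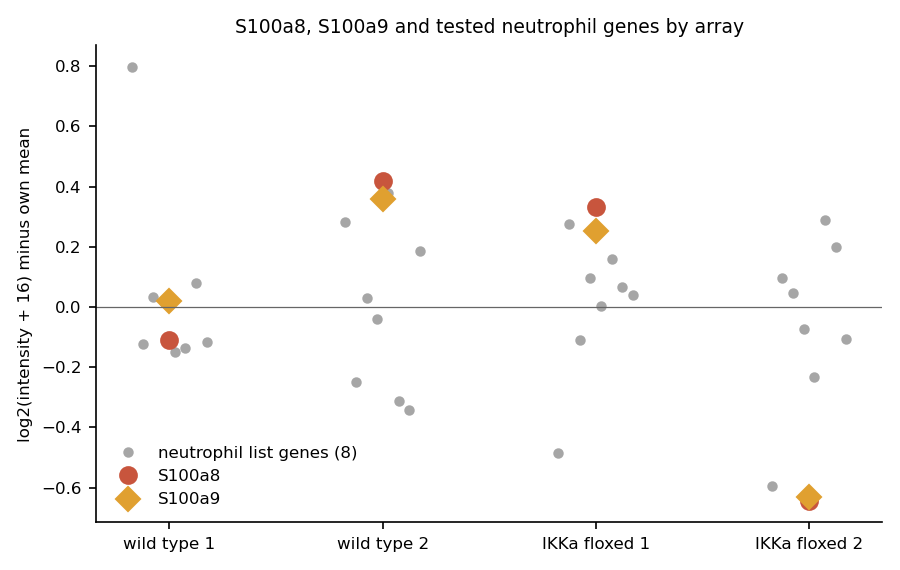
Log2(intensity + 16) minus each gene's own mean (y axis) on the 4 arrays (x axis), for S100a8 (red circles), S100a9 (yellow diamonds) and the 8 tested neutrophil genes (grey). S100a8 and S100a9 lie together on each array and reach -0.64 and -0.63 on IKKa floxed replicate 2, where the grey point beside them is Ltf.

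S100a4 was higher on both floxed arrays. With the pseudocount of 16 its difference was the largest of the members, while with a pseudocount of 1 that of the dim S100b was larger (-0.60, against 0.44 for S100a4). Its protein binds non-muscle myosin and is made by fibroblasts, macrophages and T cells. Intensities were 640.0 and 599.6 in wild type against 974 and 721 in floxed lungs, so the groups did not overlap, and the higher floxed value came from replicate 1. The mean went from 619.8 ± 28.6 to 848 ± 179 (SD, n = 2 each), a log2 difference of 0.43 ± 0.17 SE (95% interval 0.03 to 0.82, limma adjusted p = 0.315). Without IKKa floxed replicate 1 the difference was 0.21, and without replicate 2 it was 0.64 (adjusted p = 0.0955). Its partner Myh9, the heavy chain of a non-muscle myosin, was at 3433 and 3635 in wild type against 3600.4 and 3243 in floxed lungs (-0.05, adjusted p = 0.906).

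Genes of cell types known to make S100a4 differed on the same arrays. Of 10 T cell genes tested 5 rose, against 1.01% of all genes called higher (median 0.86): the receptor subunits Cd8b1 (1.49) and Cd3g (0.89) and the surface proteins Cd5 (0.96), Icos (0.85) and Thy1 (0.84), with limma adjusted p from 0.0159 for Cd5 to 0.0476 for Thy1. With the mean of its 3 probe sets Icos did not pass (adjusted p = 0.397). The summed intensity of the list was 564 and 527 in wild type against 1223 and 966 in floxed lungs. S100a4 followed the same order of the 4 arrays as that sum. The sums of the type 2 alveolar, type 1 alveolar, neutrophil and S100 receptor lists had this order too. The sum of the fibroblast and smooth muscle list had another order. That of the monocyte and macrophage list differed only in the order of the wild type arrays. How many of all genes share the S100a4 order was not counted. Of 12 monocyte and macrophage genes 4 rose, against 1.01% of all genes called higher (median 0.52): the scavenger receptor Marco, the Fc receptors Fcgr4 and Fcgr1, and the complement gene C1qb. With the mean of its 2 probe sets Fcgr1 gave 0.62 and did not pass (limma adjusted p = 0.149). Without wild type replicate 2, 1 T cell gene and 2 monocyte and macrophage genes rose, and without IKKa floxed replicate 1, 2 of each. Marco alone of the 4 passed in all alternatives. Their list summed to 15328 and 15650 in wild type against 20298 and 17961 in floxed lungs. Of 13 genes of fibroblasts and smooth muscle, 3 fell, against 0.762% of all genes called lower, and none rose (median -0.21). They were Dcn, and the smooth muscle actin Acta2 and myosin Myh11 (-0.78 and -1.14). With the mean of all probe sets none of the 13 fell. With a pseudocount of 1, with no filter, with the replicate block, without wild type replicate 2 or without IKKa floxed replicate 2, 1 fell. Dcn, a matrix proteoglycan, fell by 1.40 on the log2 scale in its brightest probe set. With the mean of its probe sets its difference was -0.70 and did not pass (limma adjusted p = 0.1065). Pdgfra, a receptor of lung fibroblasts, was at 1241 and 1388 in wild type against 1262 and 1357 in floxed lungs. The part of these cell types in the S100a4 values was not tested.

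S100a13, whose protein takes part in the release of FGF1 and interleukin 1α by a route that bypasses the Golgi, was also higher on both floxed arrays, by a small amount. It was at 1025 and 959.7 in wild type against 1178 and 1159.6 in floxed lungs, with no overlap. The log2 difference was 0.23 ± 0.12 SE (95% interval -0.05 to 0.52, limma adjusted p = 0.445), and it ran from 0.19 to 0.28 with any 1 array left out. Its client Fgf1 was at 1140.5 and 1234 in wild type against 1328 and 1332 in floxed lungs (0.16, adjusted p = 0.602), while its 3 probe sets ran from -0.097 to 0.37. Il1a was dim, at 25.4 and 26.9 in wild type against 48.9 and 19.6 in floxed lungs, with overlapping groups (0.19, adjusted p = 0.805).

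S100a1, the neighbour on the other side of the 104 bases printed for this pair, was lower on both floxed arrays. S100A1 is the S100 protein of striated muscle, where it acts on the ryanodine receptor and the calcium pump of the sarcoplasmic reticulum. Its brighter probe set, of the _s_at kind, gave 732.5 and 899.9 in wild type against 667 and 619 in floxed lungs. The log2 difference was -0.33 ± 0.14 SE (95% interval -0.67 to 0.01, limma adjusted p = 0.363), and it ran from -0.48 to -0.19 with any 1 array left out. The second probe set gave 350.4 and 278.8 in wild type against 278.7 and 257 in floxed lungs (-0.21, adjusted p over all probe sets 0.686), and the difference was -0.055 without wild type replicate 1 and -0.37 without wild type replicate 2. The groups did not overlap for this one either, but wild type replicate 2 and IKKa floxed replicate 1 were 278.81 and 278.74.

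Cardiac genes fell on the same arrays by far larger amounts than the S100a1 difference. Of 18 cardiac and striated muscle genes tested 14 fell, against 0.762% of all genes called lower, and none rose, with a median log2 difference of -2.59. The 6 with the largest moderated t were Myl7, Sln, Mb, Tnnt2, Myl4 and Myh6, with differences of -4.92 to -3.13 in their brightest probe sets. Each of the 6 except Myl7 has a further probe set between -0.49 and 0.09. Myl7, the atrial myosin light chain, went from 1028 and 1474 to 25.6 and 25.006, and Ryr2, the cardiac ryanodine receptor, from 57.4 and 96.5 to 15.3 and 17.6 (-1.49 ± 0.21 SE, limma adjusted p = 0.0228, up to 0.105 in the alternatives and not past the threshold without IKKa floxed replicate 1). The calcium pump Atp2a2, which many cell types express, was at 1300.0 and 1483 in wild type against 1428.5 and 1434 in floxed lungs in its brightest probe set (0.04, adjusted p = 0.918), while its 6 probe sets ran from -1.82 to 0.07. The list summed to 6087 and 9004 in wild type against 1053 and 867 in floxed lungs. The brighter S100a1 probe set followed the same order of arrays as that sum, and the second did not, since its highest value was on wild type replicate 1. The sum of the list of EF-hand genes outside the S100 family had the order of the brighter probe set too. How many of all genes share that order was not counted. The part of cardiac muscle in the S100a1 values was not tested.

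S100b, known from glia, adipocytes and cartilage, was dim and lower on both floxed arrays. Its brighter probe set gave 35.5 and 25.9 in wild type against 15.5 and 24.7 in floxed lungs, close together for wild type replicate 2 and IKKa floxed replicate 2. The log2 difference was -0.37 ± 0.17 SE (95% interval -0.79 to 0.04, limma adjusted p = 0.402). It ran from -0.60 with a pseudocount of 1 to -0.17 with 64. Without IKKa floxed replicate 1 it was -0.19, without wild type replicate 1 -0.23, and without IKKa floxed replicate 2 -0.56. The second probe set, at 12.5 and 11.4 in wild type against 2.41 and 6.31 in floxed lungs, lay below the filter of the fit over probe sets and was not tested. Of 6 adipocyte genes tested 4 fell, against 0.762% of all genes called lower (median -1.02), namely Car3, Adipoq, Fabp4 and Retn, with Retn lost without wild type replicate 1 or either floxed array, with a pseudocount of 64 and with no filter (limma adjusted p up to 0.112), and with a summed list intensity of 1468 and 1139 in wild type against 298 and 326 in floxed lungs. Both S100b probe sets, the second of them below the filter, followed the order of the arrays in that sum. Of the called adipocyte genes only Car3 had that order. Adipoq, Fabp4 and Retn were lower on IKKa floxed replicate 2 than on IKKa floxed replicate 1. The sum of the list for Schwann cells and glia had another order. That of the cartilage list, mostly of genes below the filter, differed only in the order of the wild type arrays. How many of all genes share the S100b order was not counted. None of 6 tested genes of Schwann cells and glia passed (median 0.07, 5 above 0), with Sox10 at -0.32 and Cnp at 0.23. The probe sets of Sox10 ran from -0.32 to 0.23 and those of Cnp from -0.36 to 0.23. Of the cartilage list 9 of 10 genes were below the filter, Col2a1 at 1.58 to 13.4 among them. The one tested, Chad, gave -1.06 (limma adjusted p = 0.0774). The part of adipose tissue, glia or cartilage in the S100b values was not tested.

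S100a6 and S100a10, which bind annexins and other partners at membranes and the cytoskeleton, were bright and overlapped between the groups. S100a6 was at 3019 and 3226 in wild type against 2830.5 and 3507 in floxed lungs. The wild type arrays lay between the floxed arrays, and the log2 difference was 0.01 ± 0.15 SE (95% interval -0.33 to 0.36, limma adjusted p = 0.981). Its partner Cacybp, a calcyclin-binding protein of ubiquitin ligase complexes, gave -0.00080 (-0.28 to 0.28, adjusted p = 0.998). S100a10, which tethers annexin A2 and does not itself bind calcium, has 3 probe sets. The brightest, of the _x_at kind that can bind unrelated transcripts, gave 2736 and 1895 in wild type against 2004 and 2655 in floxed lungs (0.02, 95% interval -0.50 to 0.53, adjusted p = 0.983). The next gave 2062 and 1812 against 1984 and 1987.5 (0.04, adjusted p over all probe sets 0.948). These probe sets ranked the arrays in the same order but with different gaps. IKKa floxed replicate 2 was well above replicate 1 on the first and level with it on the second. The dimmest gave 65.9 and 55.5 against 37.6 and 54.0, with no overlap (-0.32, adjusted p over all probe sets 0.581), and ran from -0.51 to -0.13 with any 1 array left out. Anxa2 was at 4390 and 4255 in wild type against 5095 and 4718 in floxed lungs (0.18, adjusted p = 0.561). Leaving out wild type replicate 1 or IKKa floxed replicate 2 turned the S100a6 difference to -0.03 and -0.14, and leaving out wild type replicate 2 or IKKa floxed replicate 2 turned that of S100a10 to -0.24 and -0.18.

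S100g encodes the vitamin D-dependent calbindin that carries calcium across absorptive epithelium. It was at 549 and 483 in wild type against 619.5 and 491 in floxed lungs. The groups overlapped, and the log2 difference was 0.10 ± 0.15 SE (95% interval -0.27 to 0.46, limma adjusted p = 0.832). Without IKKa floxed replicate 1 it turned to -0.07. None of 4 tested genes of epithelial calcium and vitamin D transport passed, among them the vitamin D receptor Vdr at 36.8 and 44.7 in wild type against 46.1 and 40.1 in floxed lungs (median of the 4, 0.01), and Slc8a1, a sodium-calcium exchanger, gave -0.32 (limma adjusted p = 0.369). Cyp24a1, a target of that receptor, was below the filter at 2.03 to 10.6.

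Receptors and most partners of S100 proteins did not pass either. None of 6 tested receptors passed (median -0.12), nor did any of 10 type 1 alveolar genes (median 0.07), among which Pdpn gave -0.69 (limma adjusted p = 0.0525). In some alternatives 1 of the 10 type 1 genes fell. These were a pseudocount of 64, quantile normalization, an intensity trend with robust prior, and the mean of all probe sets. Ager, which encodes RAGE and marks type 1 alveolar cells, was at 11626 and 10995 in wild type against 13638 and 12946 in floxed lungs, with no overlap (0.23, 95% interval -0.05 to 0.52, limma adjusted p = 0.451). Tlr4 was at 147 and 134 in wild type against 112 and 95.5 in floxed lungs, again without overlap (-0.39, adjusted p = 0.244), while its 4 probe sets ran from -0.39 to 0.01. Of 13 intracellular partners tested, Ryr2 fell, against 0.762% of all genes called lower, and the other 12 did not pass (median 0.02). None of 3 further S100 family genes tested passed (median 0.07), with S100a14 at 42.3 and 41.7 in wild type against 34.6 and 34.9 in floxed lungs (-0.19, adjusted p = 0.521) and S100pbp at 0.09, and S100a3, S100a5 and S100a7l2 were below the filter.

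Outside the S100 family, 2 of 6 tested EF-hand genes passed, against 1.77% of all genes, in opposite directions (median 0.06). Efhd2, an actin-binding EF-hand protein of leukocytes, was at 1547 and 1580.3 in wild type against 403 and 450.4 in floxed lungs (-1.84 ± 0.12 SE, limma adjusted p = 0.00207), while its other probe set gave -0.23. Aif1, the EF-hand protein IBA1 of macrophages, rose from 93.6 and 88.0 to 289.5 and 224 (1.34 ± 0.15 SE, limma adjusted p = 0.00969), and did not pass with no filter on low values (adjusted p = 0.0579). Sri, Pdcd6, Capns1 and Cib1, widely expressed EF-hand genes, lay between -0.02 and 0.17 and did not pass.

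**Figure D4:**
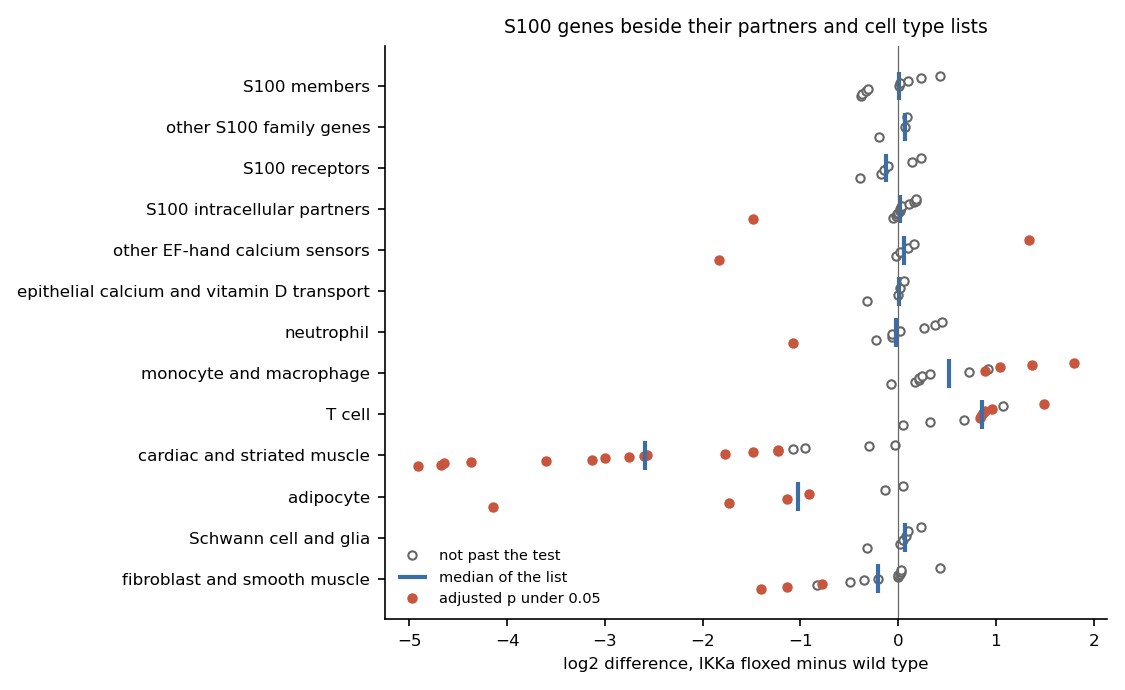
Log2 difference, IKKa floxed minus wild type (x axis), of each tested gene in the S100 family and the lists beside it (rows), filled red where the limma adjusted p was under 0.05 and open otherwise, with a blue bar at each list's median. The 9 S100 genes lie between -0.38 and 0.43 with none filled, while cardiac genes reach -4.92 and T cell genes have a median of 0.86.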

How the data were processed

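Lung RNA was measured on 1 Affymetrix array per sample from 150 ng of total RNA, per the labels' protocols. The deposited table holds linear intensity values, which the authors made with Affymetrix Expression Console, per the submitters' processing notes; version and signal algorithm: not given in the sources used here. After that, with 2% trimmed from each end, every array's mean was 150.001, and log2 array medians differed by at most 0.0646, so the deposited scaling was kept. No detection calls were used, and 2 arrays per group limit the precision. Probe sets with exactly 1 symbol (34945 of 45101) were kept, and the 1 with the highest mean stood for each of 18193 genes. Symbols of the 13 S100 probe sets all matched RefSeq. Genes under the 30th percentile of mean intensity (21.0, and 12.7 in a fit over all probe sets) were left out. Log2(intensity + 16) went into limma 3.58.1 under R 4.3.3 (lmFit, eBayes, two-sided, no covariates, 2 residual and 4.67 prior degrees of freedom), with Benjamini-Hochberg adjustment over all genes tested. An exact permutation test of 2 against 2 has too few arrangements to reach 0.05 and was not used. The fit was also run on simulated arrays with known changes, with independent noise drawn from its own fitted variances. That run does not cover the sex pattern or the choice of probe sets. Values are intensities per array, and SD and SE rest on 2 arrays a group.

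All S100 members were named, and from each list the genes past the threshold (at most 6) or the 2 with the largest moderated t. Beyond that rule, partners, defining markers and dim or unmoved genes were named after their values were seen. The members and lists were chosen with earlier results of these data known. Alternatives were pseudocounts of 1 and 64, no filter, quantile normalization, an intensity trend with robust prior, the mean of all probe sets, leaving out each array, and the replicate number as a block.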

Additional observations from a re-analysis of the deposited data

How the results depend on the processing

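No S100 gene or probe set passed under any of the 11 alternatives run on the genes or the 10 run on probe sets. The lowest adjusted p was 0.0955, for S100a4 without IKKa floxed replicate 2. S100a1, S100a4, S100a13 and S100b kept their direction in all alternatives that tested them (S100b fell below the filter with the mean of all probe sets). The other 5 changed sign at least once. With 1 array left out, the difference ran from -0.80 (without IKKa floxed replicate 1) to 0.18 (without IKKa floxed replicate 2) for S100a8, from -0.82 to 0.062 for S100a9 by the same arrays, from -0.066 (without IKKa floxed replicate 1) to 0.26 for S100g, from -0.14 (without IKKa floxed replicate 2), with -0.034 without wild type replicate 1, to 0.17 for S100a6, from -0.24 (without wild type replicate 2), with -0.18 without IKKa floxed replicate 2, to 0.28 for S100a10, and from -0.054 (without wild type replicate 2) to 0.13 for the second S100a10 probe set. After quantile normalization S100a6 was -0.10, S100a10 -0.066 and its second probe set -0.033, and the mean of the S100a10 probe sets was -0.088. The count of all genes called was 225, and 110 with a pseudocount of 1, 362 with 64, 69 with no filter, 388 with an intensity trend and robust prior, and 145 (without wild type replicate 2) to 251 with an array left out; the cause was not tested. Of the 32 called genes of other lists that the text names, 10 passed in all 11 alternatives: Marco, Myl7, Sln, Mb, Tnnt2, Myl4, Myh6, Car3, Reg3g and Efhd2. With a pseudocount of 1, 2 T cell genes and 1 monocyte and macrophage gene were called. With no filter on low values 0 T cell genes, 1 monocyte and macrophage gene, 8 cardiac genes and 1 adipocyte gene were called. Quantile normalization called 230, 147 higher and 83 lower, against 128 and 97. With the replicate block 198 genes and 0 S100 genes were called. Over all genes tested, the deviations of same-numbered arrays correlated at 0.0021. This does not settle whether the arrays were paired, since a pairing may touch few genes, and the labels give only the number.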
